A study of Rattus norvegicus with 18 samples.

Results

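The muscle of adult female rats that ate a high-fat diet for 12 weeks was compared with that of females kept on chow, where the grandfathers of both sets had eaten chow. The animals were F2 females of the Sprague-Dawley strain, 2 generations on from the F0 founders, and the muscle was the extensor digitorum longus (EDL) of the lower hindlimb. Fat supplied 42/45% of the energy of the high-fat diet. The comparison used 10 of the 18 arrays of the series, 1 animal per array: 5 chow-fed females (chow/chow, with the diet of the grandfather written first) and 5 high-fat-fed females (chow/high-fat). Both groups share the strain, the sex, the muscle and the chow-fed founders. The other 8 arrays, 4 in each of the high-fat/chow group and the high-fat/high-fat group, came from granddaughters of males fed the high-fat diet. They share the estimate of spread, and the same diet contrast in them is set beside this one. They also entered the normalization, the choice of probe set, the filter on low values and the centring of list scores. The labels give neither the exact age, nor how many founders or litters the animals came from, so relatedness among them was not tested. The arrays were taken by their group label, without regard to measured values, and all 12642 genes that passed a filter on low values were described.

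The EDL is a muscle of mostly fast fibres, which live largely on glycogen and glucose and hold fewer mitochondria than slow fibres. A long-chain fatty acid that enters a muscle cell is joined to coenzyme A, carried into the mitochondrion as a carnitine ester, and shortened there by repeated rounds of beta-oxidation; very long and branched chains are first shortened in peroxisomes. Fatty acids also bind the peroxisome proliferator-activated receptors (PPARs), nuclear receptors that switch on genes of fatty acid handling, among them those for Pdk4, Ucp3, Angptl4, Cpt1b and Plin5. A diet rich in fat is known to engage this programme in muscle, and which genes of the fast EDL differed between the 2 diets is the question the comparison addresses.

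Levels are given as log2(intensity + 16) after quantile normalization, and a difference is the chow/high-fat mean minus the chow/chow mean on that scale, so that 1 unit is a doubling. The offset of 16 understates the differences of genes at low levels. The animals of a group are numbered as their records come, and values per animal below run from animal 1 to animal 5. The deposited median intensity of an array lay between 66.29 and 70.52 in chow/chow and between 55.02 and 66.45 in chow/high-fat, where animals 4 and 5 had the lowest medians of the 18 arrays (56.98 and 55.02). The fast-muscle genes of the labelled tissue were at high levels in all 10 animals: Ckm, muscle creatine kinase, was at 13.02 ± 0.041 on chow and 12.99 ± 0.031 on the high-fat diet (SD, n = 5 and 5), and Tnnt3, fast troponin T, was at 12.94 ± 0.028 on chow and 12.96 ± 0.023 on the high-fat diet. Myh4 and Myh1, the fast myosins, lay only on probe sets of several genes and were not analysed here. The number of arrays limits the precision. The median standard error of a difference was 0.085, and for 12299 genes (97.3%) the 95% confidence interval lay within a 1.5-fold change in either direction.

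No gene passed the threshold over all genes. By limma with Benjamini-Hochberg adjustment over 12642 genes, 0 genes (0%) reached an adjusted p under 0.05, and the smallest adjusted p was 0.225. At an unadjusted p under 0.05 there were 607 genes (4.80%), 315 higher (2.49%) and 292 lower (2.31%), beside 632.1 in a table with no differences. That count depended on the fit. The animal numbers in the titles fall into 5 neighbouring pairs, each of 1 chow-fed and 1 high-fat-fed animal, and with the pair as a block in these 10 arrays alone there were 1010 genes, 475 higher (3.76%) and 535 lower (4.23%), again with 0 past the adjusted threshold (smallest limma adjusted p 0.202). The count was 671 in the same 10 arrays without the block, 807 with array weights, 905 without chow/high-fat replicate 1 and 2127 in the deposited table. Of all genes 6150 were higher and 6492 lower, with a median of -0.0031, and the central 90% lay between -0.17 and 0.16. Differences of more than 0.5 log2 were found for 20 genes upward and 10 downward, and 1 gene, Aqp7, differed by more than 1 log2. The levels of the 5 animals of each group did not overlap for 96 genes (0.759%), of which 53 were higher (0.419%) and 43 lower (0.340%). In the deposited table without normalization between arrays, whose median difference was -0.13, 400 genes did not overlap, 4 higher and 396 lower. The sizes below are therefore values that did not pass, and "higher" and "lower" refer to group means.

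**Figure D1:**
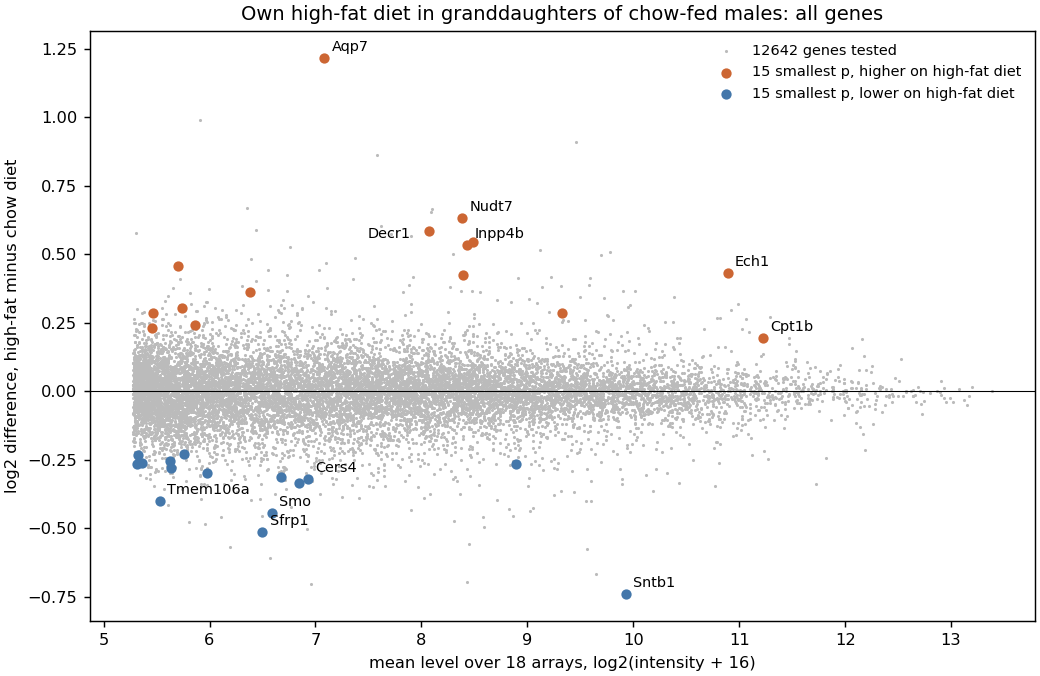
Difference between diets (log2, chow/high-fat minus chow/chow, y axis) against the mean log2 level over the 18 arrays (x axis), with 1 grey point for each of 12642 genes and the 15 higher and 15 lower genes of smallest p coloured. The central 90% of genes lie between -0.17 and 0.16, Aqp7 (1.22) lies highest and Sntb1 (-0.74) lowest.

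Most genes of mitochondrial fatty acid oxidation were higher on the high-fat diet: 23 of 25 measured members were higher and the median difference was 0.19, beside 48.6% of all genes higher and a median of -0.0031. Of the 25 members, 0 passed over all genes, 15 were higher at an unadjusted p under 0.05 (2.49% of all genes), and 6 had groups that did not overlap (0.419%). Decr1 encodes the mitochondrial reductase without which fatty acids with certain double bonds cannot be broken down. Its log2 level was 7.93, 7.93, 8.19, 7.61 and 7.80 in the chow-fed animals and 8.57, 8.41, 8.28, 8.84 and 8.28 in the high-fat-fed animals. Every high-fat-fed animal lay above every chow-fed animal, and the smallest gap was between chow-fed replicate 3 (8.19) and high-fat-fed replicates 3 and 5 (8.28). The difference was 0.58 (SE 0.12, 95% confidence interval 0.32 to 0.85), with a limma adjusted p of 0.288. Ech1, an isomerase that moves double bonds during the same breakdown, was at 10.64, 10.72, 10.67, 10.60 and 10.71 on chow and at 11.31, 11.11, 10.85, 11.23 and 11.00 on the high-fat diet. Its groups did not overlap either, and the difference was 0.43 (SE 0.12, 95% confidence interval 0.19 to 0.67). Eci2, another isomerase of double bonds, differed by 0.39 (SE 0.12), and Eci1 by 0.17.

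The entry of fatty acids into mitochondria is held back by malonyl-CoA, which blocks the carnitine palmitoyltransferase of the outer membrane. Mlycd, the decarboxylase that removes malonyl-CoA, was at 8.51, 8.21, 8.10, 8.21 and 8.40 on chow and at 8.88, 8.93, 8.50, 9.02 and 8.82 on the high-fat diet. All but 1 of the high-fat-fed animals lay above the highest chow-fed animal; the lowest, replicate 3, was level with it. The difference was 0.54 (SE 0.14, 95% confidence interval 0.26 to 0.83) with a limma adjusted p of 0.702. Cpt1b, the muscle form of that palmitoyltransferase, differed by a small and even amount: 11.16, 11.12, 11.19, 11.09 and 11.09 on chow against 11.40, 11.33, 11.29, 11.30 and 11.29 on the high-fat diet, without overlap, a difference of 0.19 (SE 0.054, 95% confidence interval 0.081 to 0.31). Its SD was small in both groups (11.13 ± 0.045 on chow and 11.32 ± 0.048 on the high-fat diet). The other steps of the shuttle were also higher: Slc25a20, the carrier of acylcarnitines across the inner membrane, by 0.34 (SE 0.12), Cpt2, which returns the chain to coenzyme A, by 0.22, Cpt1a by 0.24 and Crat, the carnitine acetyltransferase, by 0.16. Acacb, which makes the malonyl-CoA that Mlycd removes, was higher too, by 0.19 (SE 0.067). It is counted in the oxidation list although its product holds back entry.

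Of the enzymes that run each round of oxidation, the trifunctional protein subunits Hadha and Hadhb differed by 0.21 and 0.17, and Hadh, Acads and Acadl, dehydrogenases acting on different chain lengths or steps, by 0.23, 0.25 and 0.20. Acaa2, the thiolase, differed by 0.27, Acad11 by 0.19, Etfdh, which passes the electrons to ubiquinone, by 0.17, and Hsd17b10 by 0.11. The members nearest 0 were Acadvl (0.072), Acadm (0.051), Etfb (0.011) and Etfa (-0.027), and Echs1, the short-chain hydratase, was the lowest (-0.097). The mean of the 25 genes per animal, each gene centred over the 18 arrays, was -0.065, -0.11, -0.017, -0.18 and -0.087 in the chow-fed animals and 0.27, -0.0025, 0.081, 0.23 and 0.019 in the high-fat-fed animals. The groups did not overlap, and high-fat-fed replicate 2 lay closest to the chow-fed animals. In the deposited table the median was 0.061, beside the -0.13 of all genes there, and with 1 animal left out it lay between 0.15 and 0.25. The titles also carry a letter and a number that the labels do not explain; read as array wells, they put these arrays in 3 columns, 1 of which (column 9) holds a single chow-fed animal, and whether the columns belong to 1 plate is not given. By that reading, the median of the list was 0.37 within column 5 (2 high-fat-fed against 3 chow-fed animals) and 0.041 within column 7 (3 against 1), and Decr1 differed by 0.88 and 0.13 there.

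**Figure D2:**
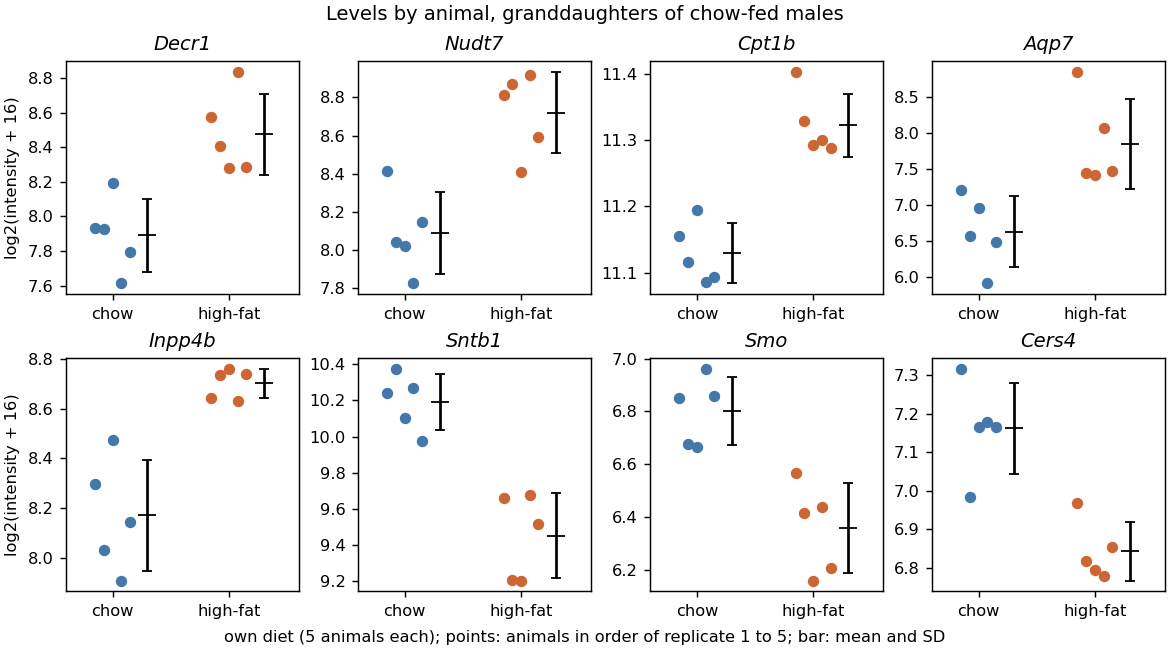
Log2 level (y axis) of 8 genes in the 5 chow/chow and the 5 chow/high-fat animals, 1 point per animal, with the group mean and SD as a bar beside the points. The groups of Decr1, Cpt1b, Aqp7, Inpp4b, Sntb1, Smo and Cers4 do not overlap, and those of Nudt7 meet at 8.42 and 8.41.

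PPARs bind as pairs with the retinoid X receptor to 2 copies of the hexamer AGGTCA with 1 base between them. The promoter windows of RefSeq (build GRCr8, 250 bases before to 50 after the start of a gene) were searched on both strands for the exact letters. The full repeat was found in 18 of 33469 promoters (0.0538%) and in 0 of the 20 oxidation genes, 0 of the 17 fatty acid responsive genes and 0 of the 29 peroxisomal genes that had a window. A single hexamer was found in 5415 of all promoters (16.2%), in 7 of the 20 oxidation genes (35.0%), in 3 of the 17 responsive genes (17.6%) and in 7 of the 29 peroxisomal genes (24.1%). These are matches of letters in short windows, not measured binding, and any full repeat here would also be counted as a single hexamer. Decr1, Ech1 and Cpt1b had no window, and that of Mlycd held none. Shown are the windows of Eci2 and Acacb, the members of the oxidation list of smallest p with a hexamer. They run 5′ to 3′ on the strand of the gene, with hexamers in capitals (TGACCT where the match is on the opposite strand). Eci2 has 1 hexamer (chr17:30075516-30075815, plus strand) and Acacb has 2 (chr12:48138165-48138464, minus strand).
Eci2: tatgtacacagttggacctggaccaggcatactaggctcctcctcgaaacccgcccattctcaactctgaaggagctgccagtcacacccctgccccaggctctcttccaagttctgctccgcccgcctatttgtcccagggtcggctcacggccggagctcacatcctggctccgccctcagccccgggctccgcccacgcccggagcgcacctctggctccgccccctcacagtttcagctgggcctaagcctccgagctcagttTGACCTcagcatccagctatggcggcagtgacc
Acacb: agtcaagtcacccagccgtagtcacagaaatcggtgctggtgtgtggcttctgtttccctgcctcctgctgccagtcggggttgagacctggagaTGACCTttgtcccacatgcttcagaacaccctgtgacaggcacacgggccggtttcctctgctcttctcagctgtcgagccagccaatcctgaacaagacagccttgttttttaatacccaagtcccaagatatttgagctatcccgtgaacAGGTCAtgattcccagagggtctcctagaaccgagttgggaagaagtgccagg

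Genes known to respond to fatty acids were higher as well, but less evenly. Of 21 measured members, 15 were higher and 6 lower, the median was 0.29, and 9 were higher at an unadjusted p under 0.05 (2.49% of all genes). The list shares 4 genes with the oxidation list. Nudt7, which in peroxisomes cleaves coenzyme A and acyl-CoA, was at 8.42, 8.04, 8.02, 7.83 and 8.15 on chow and at 8.81, 8.87, 8.41, 8.92 and 8.59 on the high-fat diet. Only replicate 3 of the high-fat-fed group was as low as the highest chow-fed animal, and the difference was 0.63 (SE 0.13, 95% confidence interval 0.35 to 0.91) with a limma adjusted p of 0.288. It was 0.77 within well column 5 and 0.61 within column 7. Slc25a42, the mitochondrial carrier of coenzyme A, differed by 0.29 (SE 0.094), Slc25a34 by 0.44 (SE 0.21) and Acot2, a mitochondrial thioesterase, by 0.31 (SE 0.13).

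The classic targets Pdk4, Ucp3 and Angptl4 had intervals that include 0, and the same high-fat-fed animal was the lowest of the 10 for all 3. Angptl4, a secreted inhibitor of lipoprotein lipase, was at 7.36, 6.84, 6.58, 7.65 and 7.77 on chow and at 8.18, 7.56, 5.84, 8.56 and 8.50 on the high-fat diet. Replicate 3 of the high-fat-fed group, at 5.84, stood apart, while the other 4 animals of its group were between 7.56 and 8.56; its neighbour by animal number, chow-fed replicate 3, was the lowest of the chow-fed animals at 6.58. The difference was 0.49 (SE 0.39, 95% confidence interval -0.32 to 1.30), and it was -0.048 without the 2 arrays of lowest deposited median. Ucp3, an inner-membrane carrier that rises with fatty acid supply, was at 10.97, 10.69, 10.21, 10.80 and 11.22 on chow and at 11.22, 11.29, 10.08, 11.35 and 11.43 on the high-fat diet, with replicate 3 again the lowest in each group. Its difference was 0.30 (SE 0.23, 95% confidence interval -0.18 to 0.77). Pdk4, the kinase that shuts off pyruvate dehydrogenase when fat is burned, differed by 0.19 (SE 0.14, 95% confidence interval -0.093 to 0.48), with 11.71 in replicate 3 against 12.24 to 12.49 in the other 4. Replicate 3 of both groups also stood apart in clock genes, with Dbp at 11.55 on chow and 11.71 on the high-fat diet. The other animals were between 10.12 and 10.98 for Dbp. The part of the clock in the values of replicate 3 was not tested. Ucp2 differed by 0.50 (SE 0.43), whereas Fgf21 (-0.0074), Acot1 (-0.014), Plin2 (-0.078) and Lpl (-0.13) were near or below 0. Without the 2 arrays of lowest deposited median the median of the list was 0.087. The receptors and coactivators themselves were close to 0 or lower: Ppard, the main PPAR of muscle, by -0.098 (SE 0.079), and Ppargc1a, the coactivator of mitochondrial genes, by -0.19 (SE 0.12).

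Peroxisomal genes stood slightly above 0, with 22 of 32 measured members higher, a median of 0.078, 7 higher at an unadjusted p under 0.05 (2.49% of all genes) and 2 higher without overlap (0.419%). Within well columns 5 and 7 the median was 0.10 and 0.018, and in the deposited table the median was -0.074, beside the -0.13 of all genes. Pxmp4, a membrane protein of peroxisomes, was at 9.20, 9.15, 9.16, 9.13 and 9.19 on chow and at 9.46, 9.58, 9.46, 9.37 and 9.39 on the high-fat diet. The groups did not overlap, and the difference was 0.28 (SE 0.073, 95% confidence interval 0.13 to 0.44). Crot, which puts shortened acyl chains onto carnitine for export to mitochondria, differed by 0.42 (SE 0.14, 95% confidence interval 0.12 to 0.71). Pex11a, which acts in peroxisome division, differed by 0.35 (SE 0.12), Hsdl2 by 0.23 and Pex19, an import factor of membrane proteins, by 0.18. The enzymes of the list varied. Hsd17b4 (0.018) and Phyh (-0.025) were near 0, and Cat, catalase, differed by 0.11 (SE 0.082). Nudt7 (0.63), Ech1 (0.43) and Ehhadh (0.22, SE 0.16) were higher, and Hacl1 was lower (-0.12, SE 0.069). The mean over the list was -0.037, -0.047, -0.028, -0.077 and -0.053 in the chow-fed animals and 0.091, 0.016, 0.033, 0.092 and 0.030 in the high-fat-fed animals, without overlap. The score of 2 of the 42 lists examined was higher without overlap, oxidation and peroxisomal genes, which share Ech1. That of 1 list, the dystrophin complex, was lower, and it leans on a single gene, Sntb1 (-0.74).

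**Figure D3:**
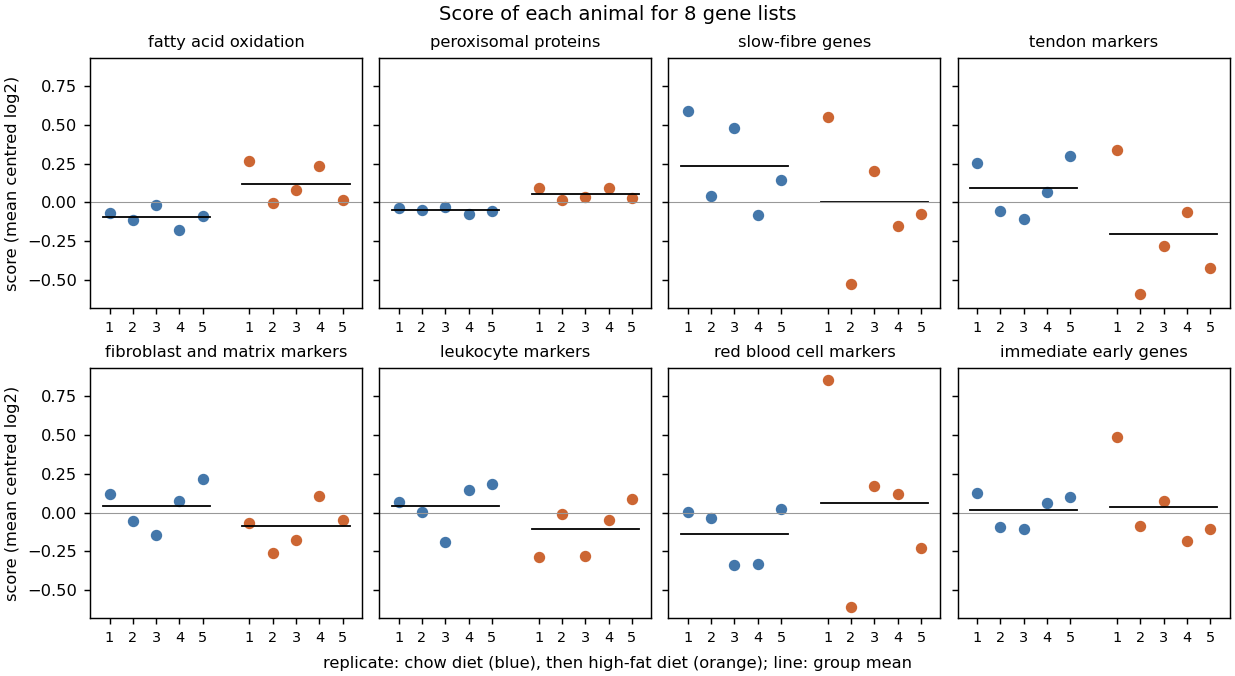
Score of each animal (mean centred log2 level of a list, y axis) for 8 gene lists, chow/chow animals in blue and chow/high-fat animals in orange by replicate number (x axis), with a line at the group mean. The groups are apart for oxidation and peroxisomal genes and overlap for the other 6 lists.

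The storage and release of fat in droplets held the largest single difference. Aqp7, a channel that lets glycerol out of or into the cell, was at 7.21, 6.58, 6.97, 5.92 and 6.49 on chow and at 8.85, 7.44, 7.42, 8.07 and 7.47 on the high-fat diet. Every high-fat-fed animal lay above every chow-fed animal, with replicate 1 far the highest at 8.85. The difference was 1.22 (SE 0.32, 95% confidence interval 0.55 to 1.88), or 2.32-fold higher, with a limma adjusted p of 0.793, and it was 1.89 within well column 5 and 0.48 within column 7. Plin5, which coats droplets next to mitochondria, was at 8.09, 7.42, 7.37, 7.03 and 7.47 on chow and at 8.60, 7.80, 8.17, 8.09 and 7.60 on the high-fat diet, a difference of 0.58 (SE 0.21, 95% confidence interval 0.13 to 1.02). High-fat-fed replicates 2 and 5 lay within the chow-fed range, and replicate 4 was level with its top. Lipe, the hormone-sensitive lipase, differed by 0.37 (SE 0.15), but by 0.11 on a second, dimmer probe set. Pnpla2, the lipase that starts the breakdown of triglyceride, differed by 0.16, and G0s2, its inhibitor, by 0.38 (SE 0.29). Of 20 measured droplet genes 15 were higher, with a median of 0.091, which was -0.050 in the deposited table.

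Aqp7, Lipe and Plin1 are also genes of fat cells, which can lie between the fibres, and in whole muscle more cells of a type and more RNA per cell cannot be told apart. Of 13 measured fat-cell markers, 9 were higher and 4 lower, with a median of 0.075, and Lep, leptin, did not pass the filter on low values. Aqp7, Lipe and Plin1 were the 3 markers higher at an unadjusted p under 0.05 (2.49% of all genes), and 0 were lower. Their summed intensity was 2204 to 2755 in the chow-fed animals and 2718 to 3184 in the high-fat-fed animals. That sum weighs Plin4 most, at a mean of 10.34 on chow and 10.39 on the high-fat diet. Adipoq, at means of 6.24 and 6.44, adds little to it. Adipoq, adiponectin, secreted by fat cells, was at 6.48, 6.73, 6.43, 5.61 and 5.94 on chow and at 6.41, 7.52, 6.47, 6.04 and 5.73 on the high-fat diet, a difference of 0.20 (SE 0.26, 95% confidence interval -0.34 to 0.74). The excess came from replicate 2, without which the difference was -0.075. Replicate 1, with the most Aqp7, was at 6.41 for Adipoq and 8.86 for Lipe. Its score for the fat-cell list, which includes Aqp7, was 0.20, beside 0.31 in replicate 2. The mean of the list was higher in the high-fat-fed animal of all 5 neighbouring pairs, by 0.080 to 0.31. Plin1, the droplet coat of fat cells, differed by 0.17 (SE 0.081), Fabp4 by 0.25 (SE 0.14), Cfd by -0.042 and Cidec by -0.011. Cidea differed by 0.40 (SE 0.20), the largest value after Aqp7, and Thrsp by -0.25 (SE 0.17), the lowest of the list. The part of fat cells in the Aqp7 and Lipe values was not tested.

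In the uptake and activation of fatty acids 10 of 17 measured genes were higher, with a median of 0.0079. Acsl4, a synthetase that joins long, highly unsaturated chains to coenzyme A, was at 8.37, 8.28, 8.22, 8.06 and 8.03 on chow and at 8.65, 8.90, 8.40, 8.51 and 8.62 on the high-fat diet. The groups did not overlap, and the difference was 0.43 (SE 0.10, 95% confidence interval 0.22 to 0.64) with a limma adjusted p of 0.609. Dbi, a carrier of acyl-CoA in the cytosol, differed by 0.38 (SE 0.14, 95% confidence interval 0.096 to 0.66), Gpihbp1, which holds lipoprotein lipase on the capillary wall, by 0.38 (SE 0.17), and Lmf1, which folds that lipase, by 0.21 (SE 0.080). Acsl1, the main synthetase of muscle, differed by 0.26 (SE 0.13). Cd36 and Fabp3, the best known carriers of fatty acids into muscle, lay only on probe sets of several genes and were not analysed here. Lipid synthesis showed no common direction, with 8 genes higher, 10 lower and a median of -0.024. Scd, a stearoyl-CoA desaturase that fat in the diet is known to lower, was at 8.74, 8.15, 7.74, 7.80 and 7.50 on chow and at 7.99, 7.51, 7.77, 7.95 and 6.75 on the high-fat diet, a difference of -0.39 (SE 0.25, 95% confidence interval -0.91 to 0.13). Scd2 differed by -0.47 (SE 0.25) and Agpat2, of phospholipid and triglyceride synthesis, by 0.47 (SE 0.24). In the main fit none of the 18 genes reached an unadjusted p under 0.05. With the pair as a block 2 were higher (3.76% of all genes) and 2 lower (4.23%). Cers4, a ceramide synthase, was the lipid gene with the smallest p below 0: 7.32, 6.98, 7.17, 7.18 and 7.17 on chow and 6.97, 6.82, 6.79, 6.78 and 6.85 on the high-fat diet, without overlap, a difference of -0.32 (SE 0.077, 95% confidence interval -0.48 to -0.16). Of the 22 ceramide and sphingolipid genes, 15 were lower and 7 higher, with a median of -0.050.

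**Figure D4:**
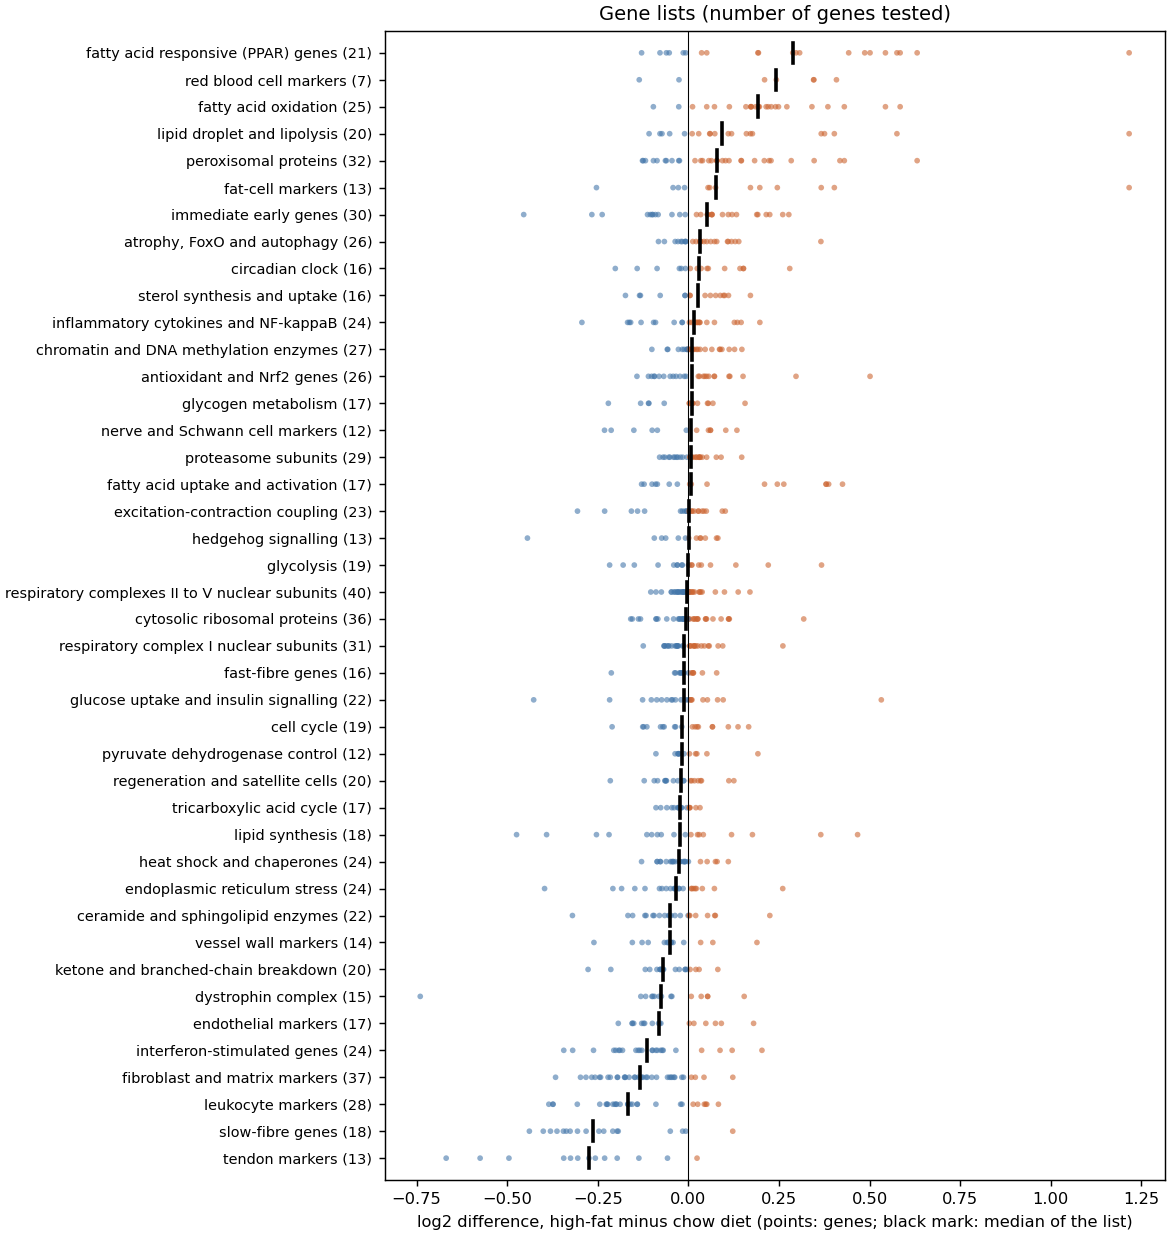
Log2 difference (x axis, chow/high-fat minus chow/chow) of the genes of 42 lists (y axis, with the number tested), 1 point per gene and a black mark at the median of the list. The fatty acid responsive list has the highest median (0.29), and the tendon and slow-fibre lists have the lowest (-0.27 and -0.26).

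Outside lipid handling, the genes of smallest p were of mixed kinds. Inpp4b, a phosphatase of phosphoinositides, was at 8.30, 8.03, 8.47, 7.91 and 8.14 on chow and at 8.65, 8.74, 8.76, 8.63 and 8.74 on the high-fat diet. The groups did not overlap, and the high-fat-fed animals varied less than the chow-fed ones. The difference was 0.53 (SE 0.11, 95% confidence interval 0.31 to 0.75) with a limma adjusted p of 0.225, but a second probe set of Inpp4b at a similar level differed by 0.072. The remaining higher genes of the 15 with the smallest p were LOC680428 (0.46), C8h3orf62 (0.30), the homeobox gene Hoxa4 (0.36), the olfactory receptor gene Or7a38c (0.29), Masp2, a protease of complement (0.24), and Sert1 (0.23). All of these but Hoxa4 had a mean level under 6 log2, which is an intensity of 48. Such low levels were found for 5 of the 15 higher genes, 8 of the 15 lower genes and 24.6% of all genes tested.

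The largest lower value was that of Sntb1, the beta-1 syntrophin, an adaptor that ties signalling proteins to dystrophin under the muscle membrane. It was at 10.24, 10.37, 10.10, 10.27 and 9.97 in the chow-fed animals and at 9.66, 9.21, 9.20, 9.68 and 9.52 in the high-fat-fed animals. All high-fat-fed animals lay below all chow-fed animals. The difference was -0.74 (SE 0.15, 95% confidence interval -1.05 to -0.43), or 1.67-fold lower, with a limma adjusted p of 0.225, and it was -0.63 and -0.79 within well columns 5 and 7. It passed in 1 other setting, the deposited table without normalization (-0.89, limma adjusted p = 0.0253), in which the difference of all genes was shifted by -0.13. Other members of the dystrophin complex differed less: Sgcd, delta-sarcoglycan, by 0.15 (SE 0.060), Nos1 by -0.13, Sntb2 by -0.094, Utrn, utrophin, by -0.10, Dmd, dystrophin itself, by -0.098 and Dag1, dystroglycan, by 0.053. The list had 10 members lower and 5 higher, with a median of -0.075. Its scores did not overlap between the groups (0.028, 0.072, 0.028, 0.063 and 0.032 on chow and -0.046, -0.057, -0.055, -0.017 and -0.010 on the high-fat diet). Sntb1 is 1 of the 15 genes in that mean, and every other member had groups that overlapped. The separation of the scores leans on Sntb1, and whether the complex as a whole differed was not tested.

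Smo, the membrane protein that passes on the hedgehog signal, was at 6.85, 6.68, 6.67, 6.96 and 6.86 on chow and at 6.57, 6.42, 6.16, 6.44 and 6.21 on the high-fat diet, without overlap. The difference was -0.44 (SE 0.085, 95% confidence interval -0.62 to -0.27) with a limma adjusted p of 0.225, and it was -0.33 and -0.41 within well columns 5 and 7. The other genes of the pathway were near 0: Gli1, a target and effector of the signal, differed by 0.047, Gli2 by 0.00094, Gli3 by -0.074 and Sufu by 0.078. Of the 13 measured hedgehog genes 7 were higher and 6 lower, with a median of 0.00094. Zfp157, a zinc finger protein, was at 6.97, 6.91, 6.98, 6.98 and 6.99 on chow and at 6.72, 6.68, 6.74, 6.62 and 6.41 on the high-fat diet, a difference of -0.34 (SE 0.067, 95% confidence interval -0.48 to -0.19). Tmem106a, a membrane protein, was at 5.73, 5.68, 5.69, 5.93 and 5.69 on chow and at 5.44, 5.45, 5.24, 5.43 and 5.15 on the high-fat diet, a difference of -0.40 (SE 0.074, 95% confidence interval -0.56 to -0.25). Its high-fat values lay around the level of the filter on low values, 5.28, so its size is uncertain. Both Zfp157 and Tmem106a had groups that did not overlap and a limma adjusted p of 0.225. Sfrp1, a secreted antagonist of Wnt ligands, differed by -0.51 (SE 0.13, 95% confidence interval -0.78 to -0.25). The rest of the 15 lower genes were Nnmt, a methyltransferase of nicotinamide (-0.30), Tsku, a secreted proteoglycan (-0.27), LOC252890 (-0.26), Rac2, a GTPase of blood cells (-0.23), Rapgef4, an exchange factor activated by cyclic AMP (-0.27), RGD1309362 (-0.31), Map3k13 (-0.23), Ccdc65 (-0.28) and Slc39a8, a metal ion transporter (-0.26).

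By size alone, without regard to p, the 5 largest higher differences were Aqp7, Adgrb2 at 0.99 (SE 0.41), Ostn at 0.91 (SE 0.54), Abo at 0.86 (SE 0.33) and Ephx2 at 0.67 (SE 0.36), and the 5 largest lower ones were Sntb1, Npr3 at -0.70 (SE 0.24), Pla2g2a at -0.70 (SE 0.46), Thbs4 at -0.67 (SE 0.28) and Pla2g7 at -0.61 (SE 0.46). Ostn encodes osteocrin, or musclin, a peptide that muscle secretes, and Npr3 the clearance receptor of natriuretic peptides, which also binds osteocrin. Ostn was at 8.69, 9.96, 8.22, 8.72 and 9.27 on chow and at 8.61, 10.99, 10.08, 9.45 and 10.29 on the high-fat diet, and its range on chow, from 8.22 to 9.96, took in 2 of the high-fat-fed animals. Npr3 was at 6.83, 7.45, 7.38, 7.84 and 7.41 on chow and at 7.13, 6.20, 6.52, 6.71 and 6.83 on the high-fat diet. Abo, a glycosyltransferase, was between 6.08 and 7.78 on chow and between 7.82 and 8.15 on the high-fat diet, so its groups did not overlap although the spread on chow was wide. Ephx2 is the soluble epoxide hydrolase of fatty acid epoxides. Except for Aqp7, Abo and Sntb1, all of these 10 genes had groups that overlapped.

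The genes of fuel use other than fat stayed close to 0. For most the interval excluded a change of 1.5-fold, as it did for 97.3% of all genes. Glycolysis had a median of 0 over 19 genes, which is the value of Gapdh, a gene of equal rank on all 10 arrays that quantile normalization therefore sets equal. Of the 19 intervals 17 lay within 1.5-fold. The medians were, for the citric acid cycle, -0.023 over 17 genes with 17 such intervals, the nuclear subunits of complex I -0.013 over 31 with 30, and those of complexes II to V -0.0034 over 40 with 40. The citric acid cycle takes up the acetyl-CoA that fatty acid oxidation makes, and its median stands beside 0.19 for the oxidation genes. Ketone and branched-chain breakdown had 16 of 20 genes lower, with a median of -0.069 and 0 at an unadjusted p under 0.05. Slc2a4, the insulin-regulated glucose transporter, was at 11.22, 11.22, 11.18, 11.23 and 11.14 on chow and at 11.08, 11.07, 11.37, 10.83 and 11.11 on the high-fat diet, a difference of -0.10 (SE 0.090, 95% confidence interval -0.29 to 0.086). Tbc1d1, a brake on the movement of that transporter to the membrane, was at 9.43, 9.70, 8.86, 9.12 and 9.06 on chow and at 8.75, 9.13, 8.74, 8.66 and 8.75 on the high-fat diet. It lay below every chow-fed animal in 4 high-fat-fed animals and at 9.13 in replicate 2, and the difference was -0.43 (SE 0.14, 95% confidence interval -0.73 to -0.12). Hk2, the hexokinase of muscle, differed by -0.22 (SE 0.12), Irs1 by -0.074 (SE 0.22), Insr, the insulin receptor, by 0.0029 and Akt2 by -0.00097. The 22 genes of glucose uptake and insulin signalling had a median of -0.013. Gbe1, the branching enzyme of glycogen, differed by -0.22 (SE 0.079), and Pfkl, the liver form of phosphofructokinase, by 0.22 (SE 0.074). Ribosomal proteins (-0.0056 over 36 genes), the proteasome (0.0081 over 29) and atrophy and autophagy genes (0.033 over 26) were also near 0, and Fbxo32 and Trim63, ubiquitin ligases that mark muscle wasting, differed by 0.062 and -0.029.

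Slow-fibre genes were lower in the group mean, by a value that varied with the animals included, and lower in the high-fat-fed animal of each of the 5 neighbouring pairs. Of 18 measured genes, 17 were lower and 1 higher, with a median of -0.26, yet 0 reached an unadjusted p under 0.05 (2.31% of all genes lower) and the median standard error was 0.33. Myh7, the slow myosin heavy chain, was at 11.62, 10.99, 11.64, 10.90 and 11.06 on chow and at 11.77, 9.84, 11.26, 10.91 and 10.70 on the high-fat diet. The high-fat-fed group held both the highest of the 10 animals, replicate 1 at 11.77, and the lowest, replicate 2 at 9.84. The difference was -0.35 (SE 0.40, 95% confidence interval -1.17 to 0.48). Csrp3 and Ankrd2, proteins of the Z-disc and stretch response that are rich in slow muscle, differed by -0.40 (SE 0.24) and -0.44 (SE 0.28), and replicate 4 of the high-fat-fed group was lowest for both. The mean of the list per animal was 0.59, 0.041, 0.48, -0.082 and 0.15 on chow and 0.55, -0.53, 0.20, -0.15 and -0.074 on the high-fat diet. The groups overlapped, but within pairs of neighbouring animal numbers the difference was below 0 in all 5, from -0.57 to -0.036, and with the pair as a block 6 of the 18 genes were lower at an unadjusted p under 0.05 (4.23% of all genes). All 5 pairs also went 1 way for the oxidation, responsive, peroxisomal, droplet, fat-cell, dystrophin and leukocyte lists. So did the atrophy and autophagy list, by only 0.018 to 0.072. Without replicate 2 of the high-fat-fed group the slow-fibre median was -0.063, and without replicate 1 of the chow-fed group it was -0.15. Within well columns 5 and 7 it was 0.13 and -0.77, and with the column as a block -0.060. Fast-fibre genes had a median of -0.013, with all 16 intervals within 1.5-fold (97.3% of all genes). Several stand near the top of the scale, such as Acta1 (13.18) and Eno3 (13.17) on chow. Quantile normalization gives genes that keep such ranks nearly the same value on every array, so their closeness to 0 is partly set by it. Myh2, the myosin of fast oxidative fibres, differed by -0.21 (SE 0.15).

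Markers of connective tissue, tendon and white blood cells were mostly lower. Of 37 fibroblast and matrix markers 33 were lower, with a median of -0.13 and 7 at an unadjusted p under 0.05 (2.31% of all genes). Dcn, decorin, a small proteoglycan of the matrix, was at 12.05, 11.89, 11.79, 11.78 and 12.03 on chow and at 11.94, 11.55, 11.61, 11.65 and 11.56 on the high-fat diet. Only replicate 1 of the high-fat-fed group, at 11.94, was within the chow-fed range, and the difference was -0.25 (SE 0.080, 95% confidence interval -0.41 to -0.078). Mgp, matrix Gla protein, differed by -0.37 (SE 0.13), Nid1, nidogen of the basement membrane, by -0.24 (SE 0.10), Tgfb1 by -0.18 (SE 0.072), and the collagens Col1a1, Col3a1 and Col6a1 by -0.30, -0.048 and -0.11. The summed intensity of the markers was 20699 to 27667 on chow and 18837 to 23799 on the high-fat diet. Within well columns 5 and 7 the median was near 0 (-0.0018 and -0.0043), with 20 and 19 of the 37 members lower, and members differed: Dcn was lower in both columns (-0.11 and -0.21), as were Mgp (-0.50 and -0.099), Nid1 (-0.060 and -0.19) and Tgfb1 (-0.14 and -0.100), while Col3a1 was not (0.0012 and 0.22). With the column as a block the median was -0.062, and in the deposited table -0.28.

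Of 13 tendon markers 12 were lower, with a median of -0.27 and 4 at an unadjusted p under 0.05 (2.31% of all genes), or 7 with the pair as a block (4.23%). Within well columns 5 and 7 the median was 0.081 and -0.26, so its direction was not the same in both. Thbs4, a thrombospondin of the myotendinous junction, was at 10.32, 9.64, 9.85, 9.97 and 9.99 on chow and at 10.44, 8.27, 9.49, 9.40 and 8.84 on the high-fat diet, and Chad, chondroadherin, at 10.20, 9.41, 9.38, 9.68 and 10.01 and 10.35, 8.87, 8.85, 9.34 and 8.39. For both genes replicate 1 of the high-fat-fed group was the highest of the 10 animals, and the other 4 lay below every chow-fed animal. The differences were -0.67 (SE 0.28) and -0.57 (SE 0.27). Scx, the transcription factor of tendon cells, differed by -0.34 (SE 0.14), and Col14a1 by -0.27 (SE 0.13). The summed intensity was 4137 to 5950 on chow and 2768 to 6534 on the high-fat diet. Of 28 leukocyte markers 22 were lower, with a median of -0.17 and 3 at an unadjusted p under 0.05 (2.31% of all genes), or 9 with the pair as a block (4.23%). The mean of the list was lower in the high-fat-fed animal of all 5 pairs, by values from -0.35 to -0.017, which is not particular to this list. Ctss, cathepsin S of macrophages, differed by -0.39 (SE 0.13, 95% confidence interval -0.65 to -0.12), Cd4 by -0.37 (SE 0.14), and Cd53, a tetraspanin of white blood cells, by -0.21 (SE 0.089, 95% confidence interval -0.39 to -0.023), with groups that did not overlap (6.61 to 6.83 on chow and 6.47 to 6.56 on the high-fat diet). The macrophage markers Cd163, Csf1r, Mrc1 and Cd68 differed by -0.31, -0.20, -0.17 and -0.090. Their summed intensity overlapped (3277 to 4628 on chow and 2865 to 4197 on the high-fat diet), and the median was -0.21 and 0.13 within well columns 5 and 7. Of 24 interferon-stimulated genes 20 were lower, with a median of -0.11. At an unadjusted p under 0.05 there were 3 lower (2.31% of all genes), or 6 with the pair as a block (4.23%). Ifit2, Ifi27 and Irf7, which interferon induces, differed by -0.32 (SE 0.10), -0.34 (SE 0.15) and -0.26 (SE 0.12). Inflammatory cytokine and NF-kappaB genes had a median of 0.014, and Tlr4, the receptor of endotoxin and a proposed sensor of saturated fat, differed by -0.29 (SE 0.097).

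Red blood cell markers were higher in 5 of 7 genes, with a median of 0.24, and replicate 1 of the high-fat-fed group stood out. Alas2, the first enzyme of haem synthesis in red cells, was at 7.36, 7.24, 6.66, 6.93 and 7.52 on chow and at 9.07, 6.33, 7.70, 7.97 and 6.69 on the high-fat diet, and without replicate 1 the median of the list was 0.029. The same animal had the highest score of the 10 for immediate early genes (0.49), which answer within minutes to stimulation, and for tendon (0.34), and replicate 2 had the lowest scores for slow-fibre (-0.53), tendon (-0.59) and red cell (-0.61) genes. The red cell, tendon and slow-fibre values of these 2 animals move together, and the part of tissue makeup or dissection in the differences given here was not tested. For the oxidation list, replicates 1 and 2 scored 0.27 and -0.0025, the highest and the lowest of the high-fat-fed group.

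The same diet contrast in granddaughters of high-fat-fed males, 4 animals against 4 without shared samples, gave a close value for some of these genes and not for others. The difference between the lineages was called for 0 genes by limma (0%, smallest adjusted p 0.546, with 863 genes or 6.83% at an unadjusted p under 0.05). Decr1 differed by 0.58 in the chow lineage and 0.59 in the other, Nudt7 by 0.63 and 0.63, Aqp7 by 1.22 and 1.41, Cpt1b by 0.19 and 0.20, and Mlycd by 0.54 and 0.44. In the oxidation list 23 of 25 genes had the same sign in both lineages, with a median of 0.26 in the other, and in the fibroblast and leukocyte lists 29 of 37 and 24 of 28 did, beside 47.9% of all genes. Of the 15 higher genes of smallest p, 11 were also higher in the other lineage, and of the 15 lower genes 7 were also lower.

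For Sntb1 the other lineage gave 0.28 (SE 0.17) against -0.74 here, a difference between lineages of -1.02 with a limma adjusted p of 0.546. Smo gave 0.048 against -0.44, and Sfrp1 0.20 against -0.51, each with a limma adjusted p of the difference of at least 0.546. Cers4 was lower in both lineages (-0.25 in the other), while Zfp157 gave 0.037 there. Slow-fibre genes had a median of -0.26 here and 0.32 in the other lineage, and 3 of 18 genes had the same sign. The median difference between lineages for that list was -0.54, with 0 of 18 genes at an unadjusted p under 0.05 for it. Angptl4 differed by 0.49 here and 0.75 there, Ucp3 by 0.30 and 0.31, and Pdk4 by 0.19 and 0.38. Tendon and interferon-stimulated genes had medians of -0.12 and -0.12 in the other lineage. A value that misses the threshold in either lineage, or in their difference, does not show that the lineages respond alike or differently.

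**Figure D5:**
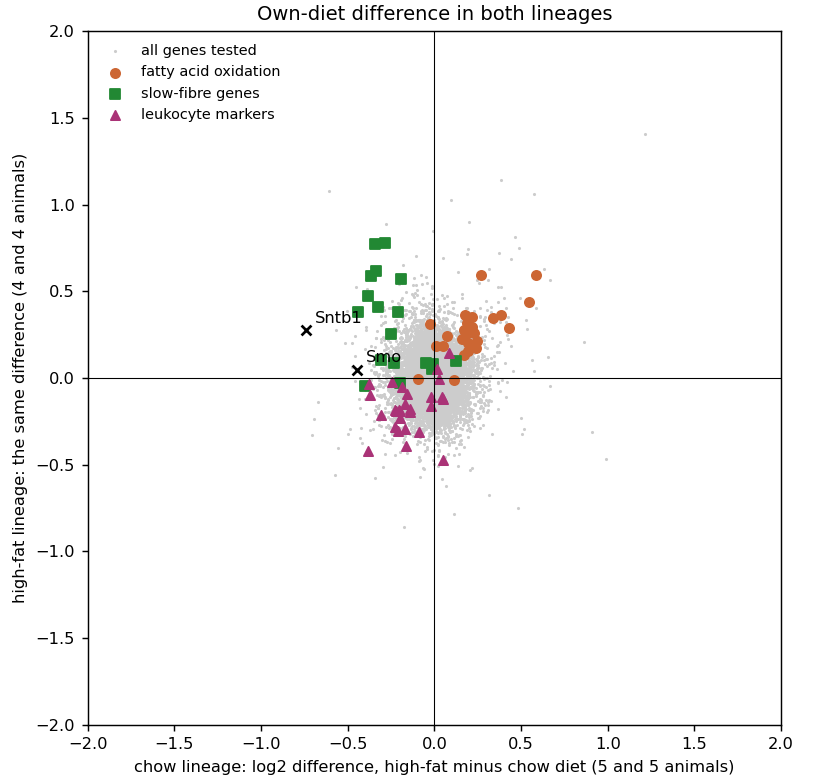
Difference between diets (log2) in the chow lineage (x axis, 5 and 5 animals) and in the lineage of high-fat-fed grandfathers (y axis, 4 and 4 animals), 1 grey point per gene, with oxidation genes, slow-fibre genes and leukocyte markers in colour. Most oxidation genes lie at the upper right, most slow-fibre genes at the upper left, and Sntb1 (-0.74 and 0.28) lies to the left and above 0.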

How the data were processed

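The data are 18 Affymetrix whole-transcript arrays of EDL RNA (200 ng per array), 1 array per animal. The deposited values are intensities on a linear scale for 20917 probe sets, made with Affymetrix Expression Console and PLIER per the submitters' processing notes; versions and settings are not given in the sources used here. Of the probe sets, 18197 carried 1 gene symbol, 960 several and 1760 none, and probe sets with exactly 1 symbol were used. From the deposited intensities, log2(intensity + 16) was taken, and arrays were quantile normalized because their medians differed by more than 0.1 log2. For each gene the probe set of highest mean was kept, and genes were tested if their mean exceeded the 25th percentile, which was 5.28 log2, which left 12642 genes. Of these, 12555 were matched to RefSeq gene identifiers of GRCr8, with 0 changed symbols.

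A group-means model over the 4 groups and all 18 arrays was fitted with limma 3.58.1 (R 4.3.3, lmFit and eBayes), so that all groups share 1 estimate of spread, and p-values (two-sided, moderated) were adjusted by Benjamini and Hochberg across all 12642 genes, with a threshold of 0.05. Errors are standard errors or SDs as stated, and intervals are 95% confidence intervals. The script was tested on simulated data with known changes. Over 20 pairs of arrays of 1 group, log2 differences had an SD of at least 0.19, so no array was a copy. Nothing in the labels says whether animals shared a litter or cage. The titles give animal numbers that fall into 5 neighbouring pairs across the diets; deviations from the group means correlated within every pair over all genes (r from 0.13 to 0.41), and each high-fat-fed animal correlated best with its own neighbour (at most 0.080 with any other chow-fed animal). The pairs were a block in an alternative fit, and what they share was not tested. Standard errors, intervals and p-values of single genes are from the main fit, which leaves this pairing out, except where the block is named.

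The comparison described and the 42 gene lists were chosen with earlier results of these data known. Genes named by rule are the 15 higher and the 15 lower genes of smallest p, the 5 largest differences in each direction, up to 4 members of smallest p in each list, a fixed panel and the defining genes of fast muscle; further members of a list were named after their values were seen. The alternatives were the deposited table without normalization, centring on medians, other offsets and filters, other variance settings, the chow lineage alone, blocks for well column and for neighbouring animal numbers, and fits without single arrays or without both arrays of lowest median.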

Additional observations from a re-analysis of the deposited data

Results flagged for a closer look

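Among 166 groups of 5 values examined, 7 had a highest or lowest animal whose gap to the next exceeded 0.71 of the range of the group; chance gives about 1 in 20. In chow/chow, replicate 4 was highest for Tmem106a (5.93) and replicate 3 was lowest for Ctss (6.97). In chow/high-fat, replicate 3 was lowest for Ucp3 (10.08), replicate 2 was highest for Tbc1d1 (9.13), replicate 4 was lowest for Ankrd2 (8.08), and replicate 1 was highest for Dcn (11.94) and had the lowest score for proteasome subunits (-0.14).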

How the results depend on the processing

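In every alternative but 1 the count of genes past the threshold was 0, with smallest limma adjusted p-values of 0.0959 (array weights) or more. In the deposited table without normalization, where the median of all genes was -0.13, 1 gene passed for the diet, Sntb1 (-0.89, limma adjusted p = 0.0253), and 1 for the difference between lineages, again Sntb1 (-1.31, adjusted p = 0.0364). The count of genes whose groups do not overlap was 400 there, 380 without both arrays of lowest deposited median (fewer animals overlap less often by construction), and 95 to 323 with 1 array left out, highest without chow/high-fat replicate 1. List medians in the deposited table were 0.061 for oxidation, 0.14 for fatty acid responsive and -0.28 for fibroblast genes, and the responsive median was 0.087 without both arrays of lowest median. With 1 array left out, medians ran from 0.15 to 0.25 for oxidation, 0.20 to 0.33 for responsive, -0.42 to -0.063 for slow-fibre, -0.39 to -0.18 for tendon, -0.19 to -0.090 for fibroblast and -0.22 to -0.12 for leukocyte genes. Of 1334 pairs of a named gene and an alternative, 20 changed sign, all in genes near 0 or with a wide spread: Fbxo32 (-0.060) and Irs2 (-0.12) as deposited, Acot1 (0.026) and Irs2 (-0.0016) with arrays centred on medians, Acot1 (0.070) with the well column as a block, and Angptl4 (-0.048) and Acot1 (0.0065) without both arrays of lowest median. With 1 array left out, Acot1 ran from -0.067 to 0.055, Irs1 from -0.20 to 0.076, Irs2 from -0.072 to 0.081 and Adipoq from -0.075 to 0.37. The cause of these changes was not tested. In the paired fit, with neighbouring animal numbers as a block, 0 genes passed; it changed no call, and raised the count at an unadjusted p under 0.05 from 607 to 1010. Signal near background limits the genes of low level.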

Other observations

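Stress, clock and cell-cycle genes showed no common direction between the diets. Clock genes did set replicate 3 of both groups, a neighbouring pair, apart from the other animals. Dbp was at 11.55 (chow) and 11.71 (high-fat) in these, against 10.12 to 10.98 in the rest. Bmal1 was at 8.10 and 7.58, against 8.41 to 8.90. Heat shock genes had a median of -0.025 over 24 genes, with all 24 intervals within 1.5-fold (97.3% of all genes). The medians were -0.036 for endoplasmic reticulum stress genes, 0.010 for antioxidant genes, 0.030 for clock genes and -0.018 for cell-cycle genes. Eif2ak3, the PERK kinase of the stress response of the endoplasmic reticulum, differed by -0.21 (SE 0.076), and Chac1, a late gene of that response, by -0.40 (SE 0.21). Among immediate early genes the values went both ways, with Dusp2 at -0.24 (SE 0.10) and Csrnp1 and Egr3 at 0.22 (SE 0.098) and 0.19 (SE 0.089). Chromatin and DNA methylation enzymes had a median of 0.011, with all 27 intervals within 1.5-fold (97.3% of all genes). Mstn, myostatin, a secreted brake on muscle growth, differed by 0.37 (SE 0.30), and satellite cell and regeneration genes had a median of -0.021 over 20 genes.

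Endothelial markers were lower in 11 of 17 genes, with a median of -0.082, and vessel wall markers in 11 of 14, with a median of -0.052. Rgs5, a marker of pericytes, differed by -0.26 (SE 0.11), and Cdh5, the cadherin of endothelial junctions, by -0.15 (SE 0.093). Nerve and Schwann cell markers had a median of 0.0085 over 12 genes.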
